A study of Mus musculus with 6 samples.

Results

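The enzymes that place methyl groups on the lysines of histones, and those that take them off, were followed in mouse neural stem cells (NSCs) with 1 mutated copy of Setd5. Members were the genes of the deposited expression table whose symbol starts with Kdm, Kmt, Setd, Suv39h, Ehmt, Nsd or Dot1l, together with Ash1l and Setmar. Setd5 itself, Kmt2e and Kdm5d were left out by the same rule. It gave 46 of the 53110 genes listed. By the lysine their products are known to act on, 40 fell into groups, with 23 methylases (lysine methyltransferases) and 17 demethylases, and 6 belonged to no lysine group.

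The study compared wild-type (WT) with heterozygous Setd5+/− NSCs, which are primary cells of the cortex cultured with EGF and bFGF. They were routinely kept as neurospheres in suspension and were seeded as adherent cultures for RNA extraction. Both genotypes were grown in ambient oxygen (21% O2), and the mutation had been made by CRISPR-Cas9. Sequencing libraries were made with a TruSeq RNA kit, with total RNA as the starting material. GEO labels 3 samples for each genotype. The table's headers name clone A3 for the mutant samples, a clone that the paper's text does not mention. The study derived its NSCs from the cortex of mid-gestation embryos.

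Methyl groups on histones do not act alone but are read by other proteins, and their effect depends on the lysine and on whether it carries a mono-, di- or tri-methyl group. Methylation of H3K4 and H3K36 marks active promoters, enhancers and transcribed gene bodies, whereas that of H3K9, H3K27 and H4K20 is known from heterochromatin and silenced genes, and H3K79 is methylated along active genes. Methylases carry a SET domain, with the exception of DOT1L, and demethylases are either FAD-dependent oxidases of the KDM1 family or oxygen- and 2-oxoglutarate-dependent enzymes with a JmjC domain. Mutations in several of these genes are known causes of intellectual disability, as are those of SETD5.

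The values are normalized counts, that is, the reads counted on a gene divided by a size factor of the sample, after the decimal points lost in the deposited table had been restored. Reads on genes ranged from 9995980 to 10004948 in the WT samples and from 7143309 to 7146147 in the Setd5+/− samples. Of the counts from 1 to 10 in a sample, 73.9% to 76.5% were even numbers, and counts were therefore taken as read pairs with both ends counted. Taken so, the samples of a genotype differed by no more than sampling noise (chi-square per degree of freedom 0.962 to 0.985 in 6 comparisons, against 33.5 to 33.7 in the 9 comparisons between genotypes). With each read taken as independent these values were 1.92 to 1.97 and 67.0 to 67.4. The column names of a genotype share 1 index and lane. Each genotype was therefore counted as 1 library in 3 parts, so n is 1 per genotype. The effect of genotype cannot be told apart from that of the clone, the library or the lane. Setd5, the mutated gene, was at 2498, 2749 and 2780 in the WT samples and at 2151, 1990 and 2055 in the mutant ones, lower in all 3 (log2 fold change −0.37, with a counting interval of −0.44 to −0.30).

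The label of the cells was checked against marker genes. All 9 NSC markers were detected in both libraries, 4 with positive and 5 with negative fold changes. Of the 9, 3 (33.3%) were past 1.5-fold with a counting interval clear of 0, against 33.9% of all genes tested. From WT to Setd5+/− NSCs, Fabp7 went from 36015 to 11490 (log2 fold change −1.65), Hes1 from 476 to 224 (−1.09) and Vim from 9095 to 13822 (0.60). Hes5 went from 1222 to 1650 (0.43) and Pax6 from 402 to 530 (0.40), while Sox2 was at 3119 and 2732 and Nes at 2378 and 1951 normalized counts. The summed astrocyte markers Gfap, Aqp4 and S100b were at 412 to 416 in the WT samples and at 1095 to 1241 in the mutant samples. All 3 were past 1.5-fold and higher, against 18.8% of all genes tested. The summed oligodendrocyte lineage markers were at 11035 to 11256 and 6242 to 6394, and Sox10 went from 298 to 1.59. Of the neuronal markers, Map2 was at 9983 and 12445, Tubb3 at 62.9 and 48.4, and Dcx at 249 and 26.2 normalized counts, while Rbfox3 was at 7.46 in WT and at 0 in the mutant samples. Endothelial markers reached at most 2.48 and mesenchymal markers at most 17.4 normalized counts in sum, and the microglial markers, of which Csf1r made up most, lay between 48.9 and 119 in sum. These shifts moved with genotype in the same libraries as every value below, and their part in the enzyme levels was not tested. In bulk RNA, fewer cells of a type and less RNA per cell cannot be told apart.

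Fold changes are differences of the means of log2(normalized count + 1), Setd5+/− minus WT, and the 95% intervals given with them cover counting error only. A gene was called when it was past 1.5-fold (0.585 on the log2 scale) with an interval clear of 0, which is a description of 2 libraries and not a test of genotype. Of the 46 members, 44 reached the minimum mean of 10 normalized counts. The exceptions were Kdm4d, a demethylase known mainly from testis, with 8 reads in WT and 6 in Setd5+/− NSCs, and its relative Kdm4dl, with 0 reads in all 6 samples. A count of 0 allows up to 3 read pairs for each library.

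Most members moved little, and those that moved were more often lower. Of the 44, 8 were called (18.2%), 1 higher and 7 lower, against 33.9% of the 16266 genes tested, of which 18.8% were higher and 15.1% lower. The higher one was Kdm5b, and the lower ones were Kdm1b, Suv39h1, Setdb2, Kmt5a, Kmt5c, Nsdhl and Setd4. A mean of 300 or more was reached by 36 of the 44 members and by 6478 of the 16266 genes, and at this level 6 members (16.7%) and 27.6% of genes were called. For the tested members the median log2 fold change was −0.23, against −0.02 over all genes tested, and the median size of the change was 0.33 against 0.40. The share of members called was thus below that of all genes. Centred on genes outside chromosome 1, a setting explained below, 6 of the 44 members were called, against 5475 of the 16266 genes tested. Of these 6 members, 2 were higher (Kdm5b and Kdm6a) and 4 lower (Suv39h1, Kmt5c, Nsdhl and Setd4).

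Smaller shifts were common at this depth, among members as among all genes. The interval was clear of 0 for 32 of the 44 members, 11 higher and 21 lower, against 65.7% of all genes (32.6% higher and 33.1% lower), and the 3 values of a genotype all lay on one side of the other 3 for 36 members, 11 higher and 25 lower, against 65.3% (32.4% and 32.9%). By limma, which here compares the reads of the 2 libraries, 31 members passed, 11 higher and 20 lower, against 61.3% of all genes (30.3% and 30.9%). Methylases had a median of −0.25, with 6 positive and 17 negative values. Demethylases had a median of 0.01, with 8 positive and 8 negative values.

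**Figure D1:**
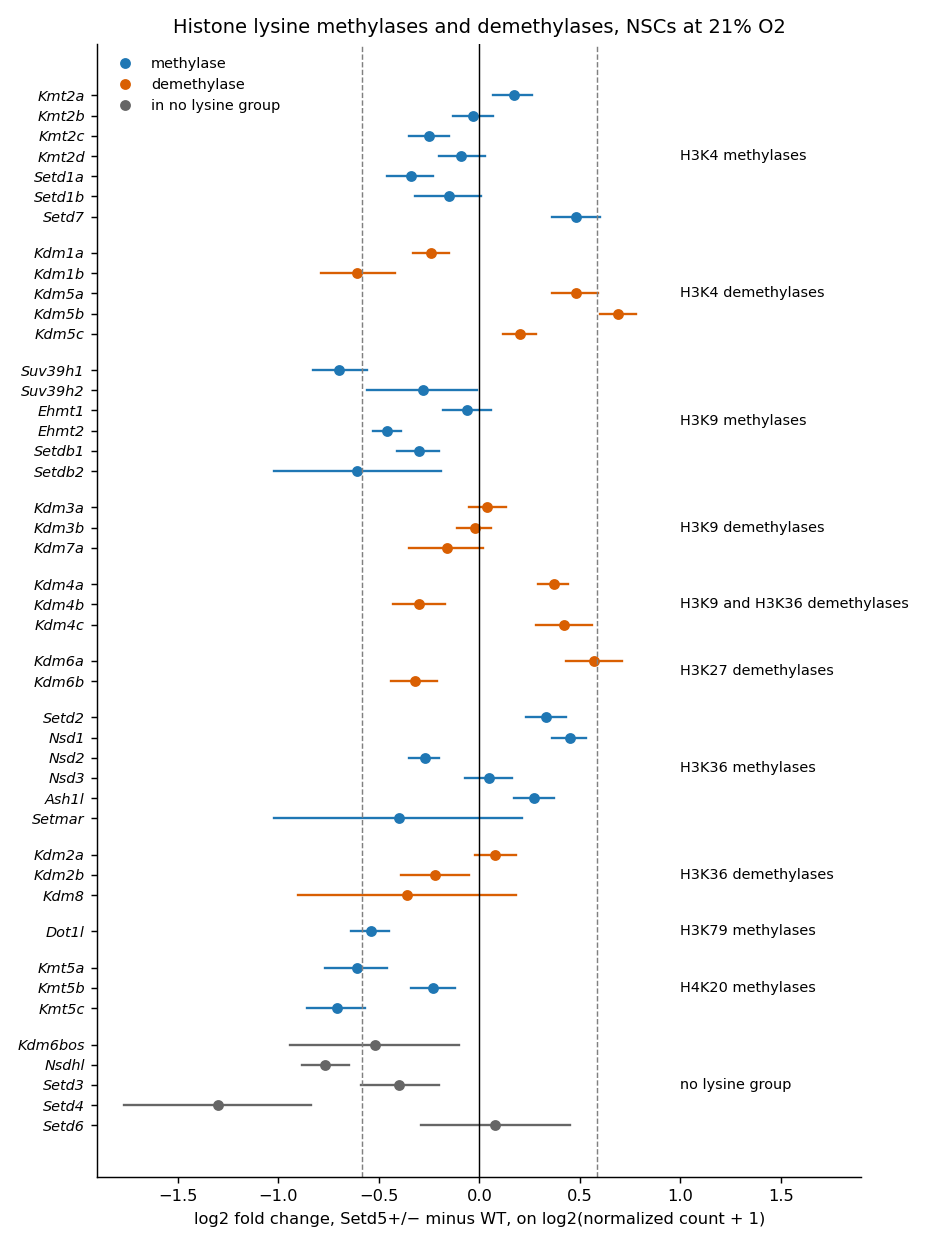
Log2 fold change (Setd5+/− minus WT, x axis) of each of the 44 tested members by target lysine, with bars for the 95% counting interval and dashed lines at 1.5-fold. Methylases of H3K9 and H4K20 and Dot1l lie left of 0, while the 3 members of the Kdm5 family lie right of it.

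**Figure D2:**
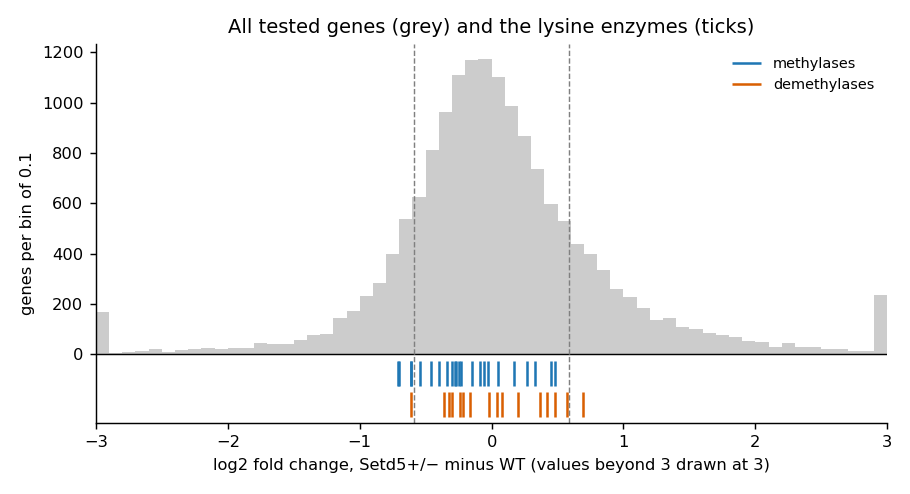
Number of tested genes (y axis) in bins of 0.1 of log2 fold change (x axis, Setd5+/− minus WT) in grey, with a tick for each methylase and each demethylase below. The ticks of the enzymes with a lysine group run from −0.71 to 0.69, within the centre of the distribution of all genes.

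Promoters are shown for the lowest member of the H4K20 and of the H3K9 methylases and for the demethylases with the highest fold changes on chromosome 1 and elsewhere. These are the 250 bases before the first-listed RefSeq start of each gene on GRCm38.p6, written 5′ to 3′ on the gene's own strand. Capitals mark the words GGGCGG and CCAAT on either strand (CCGCCC and ATTGG on the other). The windows are chr7:4739877-4740126 (plus strand) for Kmt5c, chrX:8074761-8075010 (minus strand) for Suv39h1, chr1:134559928-134560177 (plus strand) for Kdm5b and chrX:18162325-18162574 (plus strand) for Kdm6a.
Kmt5c: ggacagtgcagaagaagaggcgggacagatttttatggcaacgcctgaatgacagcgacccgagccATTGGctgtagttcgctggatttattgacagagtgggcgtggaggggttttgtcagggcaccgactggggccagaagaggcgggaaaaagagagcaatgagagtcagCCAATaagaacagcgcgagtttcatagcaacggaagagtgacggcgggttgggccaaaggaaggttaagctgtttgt
Suv39h1: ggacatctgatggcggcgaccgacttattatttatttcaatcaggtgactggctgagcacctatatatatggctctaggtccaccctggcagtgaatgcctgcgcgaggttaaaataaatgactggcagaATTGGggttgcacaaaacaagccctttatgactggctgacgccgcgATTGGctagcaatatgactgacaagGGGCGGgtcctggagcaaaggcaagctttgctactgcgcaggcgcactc
Kdm5b: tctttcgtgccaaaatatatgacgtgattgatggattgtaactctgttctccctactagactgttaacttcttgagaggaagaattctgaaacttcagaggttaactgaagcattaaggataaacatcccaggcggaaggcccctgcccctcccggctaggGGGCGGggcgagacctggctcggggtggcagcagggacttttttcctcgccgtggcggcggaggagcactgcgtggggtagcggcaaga
Kdm6a: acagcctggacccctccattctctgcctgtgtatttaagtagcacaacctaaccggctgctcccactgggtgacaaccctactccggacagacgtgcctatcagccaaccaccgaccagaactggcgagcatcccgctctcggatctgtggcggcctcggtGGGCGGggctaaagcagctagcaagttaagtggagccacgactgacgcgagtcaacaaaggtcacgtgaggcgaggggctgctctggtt
The Kmt5c window held 2 copies of CCAAT and none of GGGCGG, that of Suv39h1 held 2 and 1, and those of Kdm5b and Kdm6a each held 0 and 1. No marked word shared bases with another. Windows could be matched for 29 of the members with a lysine group, and 18 of them (62.1%) held GGGCGG. The share was 32.9% in 27025 promoters of the same length, which were not limited to genes expressed here. CCAAT was held by 11 (37.9%, against 34.5%) and TATAAA on either strand by 0 (against 13%), and the median number of CG dinucleotides was 17 against 6. These are counts of letters and say nothing of which factor binds.

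The methylases of H3K4 as a group were at nearly the same level in both libraries. Summed per kb of exon, their level was 477 to 484 in the WT samples and 462 to 471 in the Setd5+/− samples, 0.971 times the WT mean. None of the 7 was called, against 33.9% of all genes tested, and 6 had non-overlapping samples, against 65.3% of all genes. Of the 7, 2 were positive and 5 negative, and the median log2 fold change was −0.09. Kmt2a (MLL1), which keeps homeotic and stem cell genes active, was at 0.17 (0.07 to 0.26) and its close relative Kmt2b at −0.03 (−0.13 to 0.07). Kmt2c and Kmt2d, which mono-methylate H3K4 at enhancers, were at −0.25 (−0.35 to −0.15) and −0.09 (−0.20 to 0.03). The changes within the group thus ran in both directions.

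Setd1a and Setd1b are catalytic subunits of the complexes that place most tri-methyl H3K4 at promoters. Setd1a (ENSMUSG00000042308, chr7:127776670-127800122, plus strand) had the highest level per kb of the group in WT (127, against 104 for Kmt2b) and its largest negative value. In mutant NSCs Kmt2b was at 102 per kb and Setd1a at 100.4. Its WT samples were at 894, 837 and 863 and its mutant samples at 738, 669 and 640 normalized counts. No mutant value reached the lowest WT value, and the log2 fold change was −0.34 (−0.46 to −0.23). Since 51.8% of its exon bases are shared with Gm49388 on the same strand, its reads cannot all be assigned with certainty. Setd1b was at −0.15 (−0.32 to 0.01).

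Setd7, which mono-methylates H3K4 and also lysines of proteins other than histones, was the highest of the group relative to WT. Its values were 542, 614 and 637 in WT and 812, 792 and 889 in Setd5+/− NSCs. All mutant values lay above all WT values, at a log2 fold change of 0.48 (0.36 to 0.60), which is below the fold needed for a call.

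Other subunits of the KMT2 and SETD1 complexes (COMPASS subunits), some shared by all and some particular to a few complexes, ran in both directions too. Of 12 tested, 1 was called higher and 1 lower (16.7%, against 33.9% of all genes), with a median of −0.18. Rbbp5, a core subunit of all these complexes, was at 235 in WT and 363 in Setd5+/− NSCs (0.63, 0.44 to 0.81), and lies on chromosome 1. Wdr82, which ties SETD1 complexes to transcribing RNA polymerase, was at 1782 and 1073 (−0.73, −0.82 to −0.64).

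The demethylases of H3K4 were spread from −0.61 to 0.69 in log2 fold change, with the 3 KDM5 enzymes above WT and both KDM1 enzymes below it. Summed per kb, the group was at 672 to 681 in the WT samples and at 695 to 702 in the mutant samples, 1.03 times the WT mean. All 5 members had 3 values on one side of the other 3, against 65.3% of all genes tested.

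Kdm5b (JARID1B), a JmjC enzyme that removes di- and tri-methyl marks from H3K4, was the one member called higher. The WT samples were at 1007, 1060 and 954 normalized counts and the mutant samples at 1615, 1666 and 1595. All mutant values lay above all WT values, and the log2 fold change, 0.69 (0.60 to 0.78) or 1.61-fold, was the highest of any member. Kdm5b (ENSMUSG00000042207, chr1:134560171-134635285, plus strand) is the only member on chromosome 1. There, the 1044 genes tested had a median of 0.53, 79.1% were positive and 46.2% were called higher, against a median of −0.04 over the 15222 genes elsewhere. A change of Kdm5b alone cannot be told apart from this shift of its chromosome.

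The other members of the family lie on other chromosomes. Kdm5a (RBP2), on chromosome 6, was at 640, 635 and 663 in WT and at 865, 887 and 951 in mutant NSCs, or 0.48 (0.36 to 0.59). Kdm5c, on the X chromosome and a known gene of X-linked intellectual disability, was at 1625, 1584 and 1659 in WT and at 1829, 1892 and 1870 in mutant NSCs, or 0.20 (0.12 to 0.28). In both genes the mutant values all lay above the WT values, though neither was past 1.5-fold. Kdm5c is known to escape X inactivation, and both libraries expressed Xist, the RNA that coats the inactive X, at 19980 and 25747 normalized counts while the Y-linked Uty was at 0 in all 6 samples, Eif2s3y at 0 in 5 and at 2.38 in 1 mutant sample, and Ddx3y at 1.66 to 6.62 in WT and 0 to 2.38 in mutant samples.

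Kdm1a (LSD1), which removes mono- and di-methyl marks from H3K4, had the highest level per kb among H3K4 demethylases in WT (272, and 230 in Setd5+/−). Its values were 1401, 1433 and 1399 in WT and 1195, 1186 and 1192 in mutant NSCs, a log2 fold change of −0.24 (−0.33 to −0.15). Kdm1b (LSD2), which acts on the same marks within gene bodies and in oocytes, was called lower. It was at 367, 382 and 401 in WT and at 266, 241 and 248 in mutant NSCs, and the groups did not overlap. The log2 fold change of Kdm1b (ENSMUSG00000038080, chr13:47043499-47085279, plus strand) was −0.61 (−0.79 to −0.42), with 9.19% of its exon bases shared with Dek on the opposite strand.

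The ratio of Kdm5b to Kdm1b per kb of exon went from 0.872 in WT to 2.15 in Setd5+/− NSCs, and it lay between 0.79 and 0.92 in the WT samples and between 2.02 and 2.30 in the mutant samples. In WT cells Kdm1b was thus the higher of the pair per length, and in mutant cells Kdm5b was. This pair sets the 1 member of the group called higher against the 1 called lower, so a shift of their ratio follows from the choice. It also carries the shift of chromosome 1, where Kdm5b lies. The ratio of Kdm5b to Kdm1a per kb was 0.223 in WT and 0.427 in Setd5+/− NSCs, with Kdm1a the higher in both. Of 6 tested partners of LSD1 in the CoREST complex, 2 were called (33.3%, against 33.9% of all genes). Both were higher, Rcor2 at 556 and 1131 (1.03, 0.91 to 1.14) and Rcor3 on chromosome 1 at 178 and 367 (1.04, 0.84 to 1.24). Hmg20b, another subunit, was at 775 and 533 (−0.54, −0.67 to −0.41), and the median of the 6 was 0.03.

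**Figure D3:**
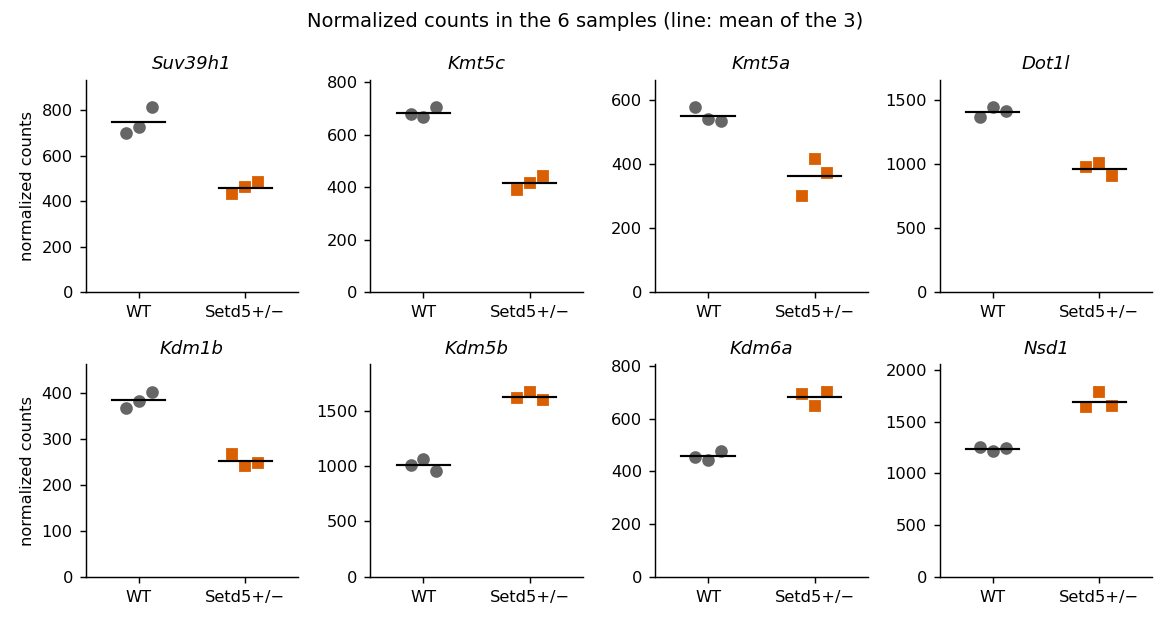
Normalized counts (y axis, from 0) of 8 members in the 3 WT samples (circles) and the 3 Setd5+/− samples (squares), with a line at each mean. The samples of a genotype are parts of 1 library. Suv39h1, Kmt5c, Kmt5a, Dot1l and Kdm1b are lower and Kdm5b, Kdm6a and Nsd1 higher in Setd5+/− NSCs. The 8 genes were chosen among members with large changes. The genotypes do not overlap in any of them, as is the case for 65.3% of all genes tested.

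All 6 methylases of H3K9 had negative values. Their summed level per kb was 854 to 924 in the WT samples and 655 to 666 in the Setd5+/− samples, 0.751 times the WT mean, and their median log2 fold change was −0.38. Of the 6, 2 were called lower, Suv39h1 and Setdb2, against 15.1% of all genes, and 5 had all 3 mutant values below all WT values, against 32.9% of all genes.

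Suv39h1 and Suv39h2 place the tri-methyl mark on H3K9 at pericentric heterochromatin. Suv39h1 (ENSMUSG00000039231, chrX:8061171-8074760, minus strand) was at 700, 728 and 813 in WT and at 433, 464 and 484 in Setd5+/− NSCs. The highest mutant value was well under the lowest WT value, at −0.70 (−0.83 to −0.56) on the log2 scale. The gene shares 14.6% of its exon bases with the antisense gene Gm14820, and reads on these bases cannot be separated where counting ignores strand. Suv39h2 was at 156, 150 and 161 in WT and at 145, 130 and 110 in mutant NSCs, a log2 fold change of −0.28 (−0.56 to −0.01). Per kb, Suv39h1 was 4.02 times as high as Suv39h2 in WT and 3.00 times in Setd5+/− NSCs. Over the samples, which are parts of 1 library per genotype, this ratio ranged from 3.76 to 4.24 and from 2.49 to 3.69. These ranges nearly touch, and Suv39h2 rested on 563 reads in WT and 323 in mutant NSCs.

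Ehmt2 (G9a) and Ehmt1 (GLP) form the heterodimer that mono- and di-methylates H3K9 in euchromatin. Ehmt2 had the highest level per kb of all lysine group members in WT, at 432 in WT and 314 in Setd5+/− NSCs. Its values were 2336, 2363 and 2421 in WT and 1711, 1743 and 1719 in mutant NSCs. The samples were tight within each genotype and did not overlap, at a log2 fold change of −0.46 (−0.53 to −0.39). Ehmt1, at 763 and 731 on average, overlapped between genotypes (−0.06, −0.18 to 0.06). Although the pair acts as 1 enzyme, their transcripts thus differed in their fold changes, with intervals that did not overlap.

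Setdb1, which tri-methylates H3K9 at retroelements and is brought there by TRIM28, was at 1043, 996 and 1217 in WT and at 854, 850 and 923 in Setd5+/− NSCs (−0.30, −0.41 to −0.20). Setdb2, its less studied relative, was called lower at low counts. It was at 88.7, 65.4 and 72.0 in WT and at 63.2, 35.7 and 51.2 in mutant NSCs, and its interval was wide (−0.61, −1.02 to −0.19).

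Of 7 partners of these enzymes in heterochromatin, 1 was called higher and 0 lower (14.3%, against 33.9% of all genes), and the median was −0.12. Cbx5 (HP1α), a reader of tri-methyl H3K9, was at 3935 in WT and 7462 in Setd5+/− NSCs (0.92, 0.88 to 0.97), opposite in direction to the methylases whose mark it binds. Trim28 was at 2383 and 1857 (−0.36, −0.43 to −0.29), and Cbx3 (HP1γ) at 126 and 97.3 (−0.36, −0.67 to −0.05).

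The demethylases that act on H3K9 without H3K36 were at the same summed level per kb, 273 to 292 in WT and 280 to 282 in Setd5+/− NSCs. Kdm3a, a hypoxia-responsive enzyme that removes mono- and di-methyl H3K9, had the highest level per kb of this group. It was at 1233, 1166 and 1152 in WT and at 1180, 1204 and 1267 in mutant NSCs, and the groups overlapped (0.04, −0.05 to 0.13). Kdm3b, its relative, was at −0.02 (−0.11 to 0.06), with 24.6% of its exon bases shared with a lincRNA on the opposite strand. Kdm7a, which demethylates H3K9 and H3K27, was at 326, 309 and 335 in WT and at 297, 306 and 266 in mutant NSCs (−0.16, −0.35 to 0.02). No interval in this group was clear of 0, while 65.7% of all genes tested had one clear of 0.

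The KDM4 enzymes remove tri-methyl marks from both H3K9 and H3K36, and their summed level per kb was 489 to 495 in WT and 554 to 585 in Setd5+/− NSCs, 1.16 times the WT mean. Kdm4a, the highest of them per kb, was at 1629, 1558 and 1522 in WT and at 2051, 1911 and 2107 in mutant NSCs (0.37, 0.29 to 0.44). Kdm4c was at 454, 428 and 499 in WT and at 632, 582 and 630 in mutant NSCs (0.42, 0.28 to 0.56). Kdm4b went the other way, at 661, 724 and 687 in WT and 534, 606 and 548 in mutant NSCs (−0.30, −0.43 to −0.17). None of the 3 overlapped between genotypes, as was the case for 65.3% of all genes tested. None was called, against 33.9% of all genes. The ratio of Kdm4c to Kdm4b per kb was 0.560 in WT and 0.918 in Setd5+/− NSCs. As this sets the largest rise of the group against its only fall, the shift follows from the choice.

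The demethylases of H3K27, the mark that Polycomb complexes place on silenced developmental genes, moved in opposite directions. Kdm6a (UTX), which also is a subunit of KMT2C and KMT2D complexes and escapes X inactivation, was at 456, 442 and 478 in WT and at 694, 649 and 700 in Setd5+/− NSCs. All mutant values were above all WT values. The log2 fold change of Kdm6a (ENSMUSG00000037369, chrX:18162575-18279936, plus strand) was 0.57 (0.43 to 0.71), 1.48-fold and just short of a call. Kdm6b (JMJD3), an inducible enzyme needed for neural differentiation, was at 903, 958 and 956 in WT and at 715, 748 and 790 in mutant NSCs, again without overlap (−0.32, −0.44 to −0.21).

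Because one was higher and the other lower, the summed level of the pair per kb was 184 to 194 in WT and 185 to 197 in Setd5+/− NSCs. The ratio of Kdm6a to Kdm6b, per kb, was 0.405 in WT and 0.752 in mutant NSCs, so that Kdm6b stayed the higher of the pair in both. The antisense transcript Kdm6bos, which shares 34% of its exon bases with Kdm6b, was at 75.5, 67.8 and 69.6 in WT and at 50.1, 52.4 and 45.3 in mutant NSCs (−0.52, −0.94 to −0.10), and without strand its reads cannot be told apart from those of Kdm6b.

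The methylases of H3K36 were higher as a group, with 404 to 422 per kb in WT and 448 to 460 in Setd5+/− NSCs, 1.09 times the WT mean. None of the 6 was called, against 33.9% of all genes tested. Of the 6, 4 were positive and 2 negative, and the median was 0.16. Nsd1, the gene of Sotos syndrome, whose product di-methylates H3K36 between genes, was the highest of the group relative to WT. It was at 1259, 1213 and 1246 in WT and at 1641, 1784 and 1646 in mutant NSCs. These values did not overlap, at a log2 fold change of 0.45 (0.36 to 0.53). Nsd2, the gene of Wolf-Hirschhorn syndrome and the highest of the group per kb in WT, was at 2087, 2115 and 2073 in WT and at 1729, 1749 and 1718 in mutant NSCs (−0.27, −0.35 to −0.20), and Nsd3 was at 740 and 763 on average with overlap (0.05, −0.07 to 0.16).

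Per kb, the ratio of Nsd1 to Nsd2 was 0.551 to 0.580 in the WT samples and 0.912 to 0.980 in the Setd5+/− samples. The pair, which place the same mark, were closer to equal per length in mutant NSCs. Nsd1 had the largest rise of the group and Nsd2 was lower, so a shift of their ratio follows from the choice. The samples of a genotype are parts of 1 library. Setd2, the main enzyme of tri-methyl H3K36, which travels with RNA polymerase II, was at 991, 901 and 953 in WT and at 1169, 1200 and 1202 in mutant NSCs (0.33, 0.23 to 0.43), and in mutant NSCs it had the highest level per kb of the group, at 111. Ash1l, which di-methylates H3K36 and counters Polycomb, was at 0.27 (0.17 to 0.37). Setmar was low, at 38.1, 27.3 and 27.3 in WT and 23.8, 26.2 and 19.1 in mutant NSCs, and its interval held 0 (−0.40, −1.02 to 0.21).

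For the demethylases of H3K36 no large difference was found, with a summed level per kb of 123 to 128 in WT and 120 to 121 in Setd5+/− NSCs. Kdm2a, the highest of them per kb and a protein that binds unmethylated CpG islands, was at 1042, 988 and 1082 in WT and at 1096, 1112 and 1073 in mutant NSCs, with overlap (0.08, −0.02 to 0.18). Kdm2b, which brings a Polycomb complex to CpG islands, was at −0.22 (−0.39 to −0.05), and part of its transcript has a copy in Gm12397. Kdm8 was at 33.2, 46.3 and 37.3 in WT and at 26.2, 27.4 and 36.9 in mutant NSCs, where depth could not show a difference (−0.36, −0.90 to 0.18).

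Dot1l, the sole methylase of H3K79 known in mammals, was lower in Setd5+/− NSCs but under the fold for a call. It was at 1364, 1440 and 1410 in WT and at 977, 1006 and 906 in mutant NSCs. The mutant values all lay well below WT, and the log2 fold change of Dot1l (ENSMUSG00000061589, chr10:80755206-80795461, plus strand) was −0.54 (−0.64 to −0.45), 0.686 times the WT mean. Of 4 tested partners that recruit DOT1L to elongating genes, 0 were called, against 33.9% of all genes. Mllt1 (ENL) was at 795 and 580 (−0.45, −0.58 to −0.33) and Mllt10 (AF10), the one furthest to the other side, at 517 and 544 (0.07, −0.07 to 0.21).

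The methylases of H4K20 were the group with the lowest ratio to WT. Their summed level per kb was 337 to 344 in the WT samples and 206 to 242 in the Setd5+/− samples, 0.672 times the WT mean. All 3 were negative, with a median of −0.61, and 2 of the 3 were called lower, against 15.1% of all genes. With 3 genes, this share is only a description of them.

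Kmt5a (SET8), which places the mono-methyl mark in a cell-cycle dependent way, was at 578, 541 and 537 in WT and at 300, 416 and 374 in Setd5+/− NSCs. The parts of the mutant library were spread widely but all lay below WT, and the log2 fold change of Kmt5a (ENSMUSG00000049327, chr5:124439930-124462308, plus strand) was −0.61 (−0.77 to −0.46). Kmt5c (SUV4-20H2), which makes the tri-methyl mark at pericentric heterochromatin, was at 678, 669 and 705 in WT and at 388, 418 and 444 in mutant NSCs. Its groups were far apart, and the log2 fold change of Kmt5c (ENSMUSG00000059851, chr7:4740115-4747514, plus strand) was −0.71 (−0.86 to −0.57), the lowest of any member with a lysine group. Kmt5b (SUV4-20H1), which makes most of the di-methyl mark, was at 968, 995 and 975 in WT and at 766, 874 and 868 in mutant NSCs (−0.23, −0.34 to −0.12).

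Per kb of exon, Kmt5c was the highest of the group in both genotypes, at 171 in WT and 104 in Setd5+/− NSCs, and the ratio of Kmt5b to Kmt5c was 0.388 and 0.544. The sequences of the Suv39h1 and Kmt5c promoters given above belong to the members with the lowest fold change of the H3K9 and of the H4K20 methylases. The plot of summed levels sets all groups side by side.

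**Figure D4:**
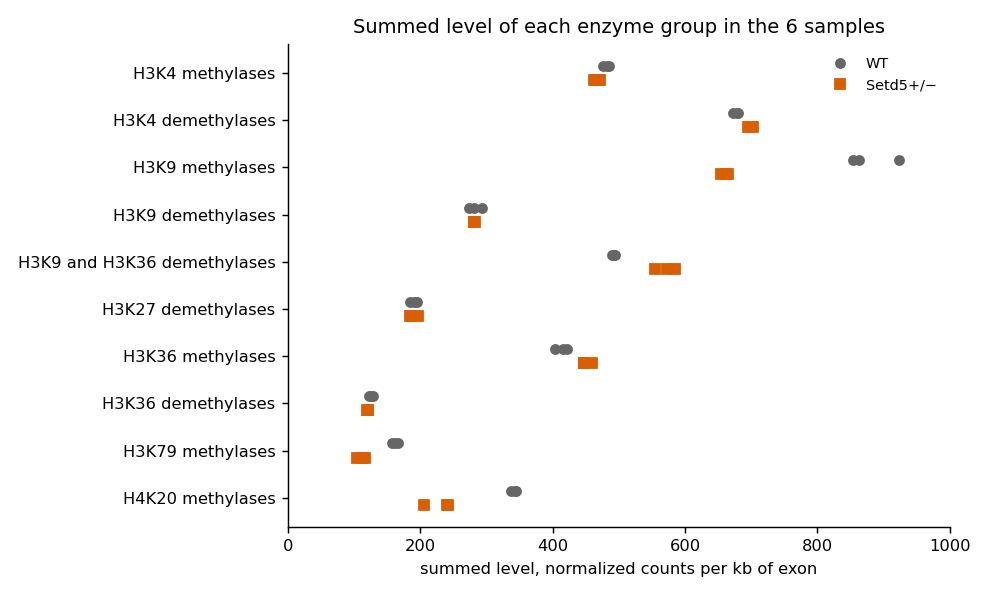
Summed level of each enzyme group (x axis, normalized counts per kb of exon, from 0) in the 3 WT samples (circles) and the 3 Setd5+/− samples (squares), which are parts of 1 library per genotype. Methylases of H3K9, H3K79 and H4K20 lie at 0.751, 0.686 and 0.672 times their WT mean, and the other groups between 0.960 and 1.16 times.

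Of the 6 members in no lysine group, 5 were tested and 2 called lower, against 15.1% of all genes. Setd4, a SET domain protein whose substrates are less well known, was the one member past 2-fold. It was at 70.5, 91.8 and 92.8 in WT and at 42.9, 27.4 and 32.2 in Setd5+/− NSCs. The groups did not overlap, and the log2 fold change of Setd4 (ENSMUSG00000022948, chr16:93583457-93604063, minus strand) was −1.30 (−1.77 to −0.84), resting on 308 reads in WT and 86 in mutant NSCs. Nsdhl was caught by its symbol only, since its product is an enzyme of cholesterol synthesis. It was at 1072, 1114 and 1130 in WT and at 606, 666 and 675 in mutant NSCs (−0.77, −0.88 to −0.65), and without it the median of the members was −0.22.

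Setd3, a histidine methylase of actin, was at −0.40 (−0.59 to −0.20), and parts of its transcript have copies in Gm14026 and Gm7114. Setd6, which methylates a subunit of NF-κB, was at 66.3, 81.9 and 67.9 in WT and at 70.3, 77.4 and 81.0 in mutant NSCs, with overlap (0.08, −0.29 to 0.45). Further lysine methylases and demethylases outside the symbol rule, such as those of the Smyd, Prdm and Phf families, were read from a list. It held 17 symbols, of which 13 were found. The rest (Whsc1, Whsc1l1, Suv420h1 and Suv420h2) are older names of the members Nsd2, Nsd3, Kmt5b and Kmt5c. Of the 12 listed genes that were tested, 1 was called lower and 0 higher (8.33%, against 33.9% of all genes), with a median of 0.10. Riox1, a JmjC protein of the nucleolus, was at 159 and 94.9 (−0.80, −1.11 to −0.50), and Jmjd1c, a relative of the KDM3 enzymes, at 2002 and 2936 (0.55, 0.49 to 0.62).

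On the X chromosome, whose 635 tested genes had a median of −0.05, the 4 members were far from each other. Kdm5c and Kdm6a, both known escapees of X inactivation, were above WT, and Suv39h1 and Nsdhl were called lower. All 4 had non-overlapping samples, as did 65.3% of all genes. Calls close to the fold depended on the parts of the libraries used. Kdm1b was no longer called without the third WT sample or without the second mutant sample, Kmt5a without the first sample of either genotype, and Setdb2 without the first WT sample or the second mutant sample. Kdm6a was called without the third WT sample or the second mutant sample. Centred on genes outside chromosome 1, the calls of Kdm1b, Kmt5a and Setdb2 were lost and Kdm6a was gained. Setdb2 was also lost with a pseudocount of 5. Kdm5b, Suv39h1, Kmt5c, Nsdhl and Setd4 were called in each of these settings.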

How the data were processed

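Expression was measured by RNA-seq in 3 WT and 3 Setd5+/− samples of NSCs at 21% O2. The authors trimmed reads with Trimmomatic, aligned them to mm10 with Bowtie2 and divided the counts per gene by DESeq2 size factors. The program that counted and its strand setting are not given in the sources used here, and the library kit does not mark strand. These normalized counts were deposited with damaged decimal points, which were restored so that each value became a whole number of reads (largest distance 0.00015 reads) and the 6 values gave the deposited mean. All 52438 genes with values could be restored, 672 carried none. In simulated data 99.9943% of values were recovered. The authors' own fold changes, standard errors, test statistics and p-values in the table were not used. No column of values per sample was left unused.

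Reads were compared within and between genotypes by chi-square, with each count halved to read pairs. Samples with the same number did not deviate together (correlations 0.0049, 0.0015 and −0.0071), so the numbers do not pair them. Counting intervals took the variance as 1.954 (WT) and 1.936 (Setd5+/−) times the mean, as measured within each genotype, a spread near that of read pairs with both ends counted. The test was limma (version 3.58.1, R version 4.3.3, lmFit and eBayes with trend), run over genes reaching a mean of 10, on log2(normalized count + 1) with Benjamini-Hochberg adjustment at 0.05. In simulated data for this comparison (16290 genes), 94 of 100 genes changed by 0.8 on the log2 scale and 100 of 100 changed by 1.5 were past 1.5-fold with an interval clear of 0, as were 194 unchanged genes. Reads behind each value limit its precision, and intervals and floors cover counting error only. Where samples of a genotype are parts of 1 library, limma measures only the spread of reads between these parts.

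Exon lengths, positions and overlaps came from GENCODE M21, copies from a BLAST of transcripts (at least 95% identity over at least 300 bases), and promoters from RefSeq. Members, lists and tests were chosen with earlier results of these data known. Values in every sample were given for members past 1.5-fold and for the largest fall, largest rise and highest level in each lysine group, and Kdm5a, Kdm5c, Suv39h2, Setdb1, Kmt5b, Setd2 and Kdm6bos were added after their values were seen. Of each related list, the largest fall, the largest rise and the calls were named.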

Additional observations from a re-analysis of the deposited data

How the results depend on the processing

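With 1 library per genotype, no setting can show how cultures or clones vary, and depth limits Setdb2, Setmar, Kdm8 and Setd4, which rest on few reads. The number of called members was 21 at a lower fold threshold of 0.32 on the log2 scale (8 higher, 13 lower). At 2-fold it was 1, and such a change follows from the threshold by construction. The share of all genes called at these thresholds was not counted. With each sample left out in turn, the number of called members was 6 to 8, while 5417 to 5474 of all genes tested were called. The limma count was then 29 to 33, and the median of the members ranged from −0.230 to −0.179, the latter without the third Setd5+/− sample. That is a move by more than the SD of the median between samples (0.046), and the cause was not tested. The replicate number as a block in limma left 31 members, the same count as without it. Under the other settings (pseudocount 0.5 or 5, no filter or a mean of at least 50, upper quartile scaling, centring on genes outside chromosome 1, fold alone, no trend, and without members on chromosome 1 or Nsdhl), the call count was 6 to 8, the limma count 29 to 33 and the median −0.264 to −0.182. Single members gave 526 values over 12 settings, all within the counting interval of the value reported, and 0 called values changed sign.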
